A study of Oryza sativa with 12 samples.

Results

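Respiratory burst oxidase homologues (Rboh) are the plant NADPH oxidases. The Rboh genes of rice were taken as every locus whose gene name in the authors' deposited table contains rboh in any letter case, which gave 10 loci of the 38978 annotated genes. They carry 9 distinct names, A to I, with rbohA given to 2 neighbouring loci. Their transcripts were followed by RNA sequencing in leaves of Pusa Basmati-1 (PB-1), an indica variety. The study altered OsPIP2-1 and OsPIP2-7, aquaporins of the plasma membrane. For OsPIP2-1 there was an overexpression group (PIP2-1 OE; 3xMyc-tagged OsPIP2-1 driven by the maize ubiquitin promoter, ZmUbiquitin), a T-DNA-free CRISPR-Cas9 knockout group (PIP2-1 KO) and a wild type of its own (PIP2-1 WT). For OsPIP2-7 the same 3 groups existed (PIP2-7 OE with 3xFLAG-tagged OsPIP2-7, PIP2-7 KO, PIP2-7 WT). Each group had 2 libraries, 12 in all, from vegetative leaves at an age of 2.5 months. The ubiquitin promoter is active in most cell types, and the number of independent lines behind a group is not given in the sources used here. Whether the libraries of a group stem from different plants is not stated in the labels. The p-values therefore reflect library-to-library spread alone, and that spread could be technical.

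An Rboh protein sits in the plasma membrane and passes electrons from NADPH in the cytosol to oxygen outside the cell, which makes superoxide. Superoxide dismutases turn superoxide into hydrogen peroxide, and some PIP aquaporins let hydrogen peroxide back into the cell. The N-terminal part of the enzyme carries calcium-binding EF hands and is a target of protein kinases and, in rice, of the small GTPase OsRac1. The C-terminal part binds FAD and NADPH. In Arabidopsis, members of the family are known for the oxidative burst of immunity, for stomatal closure under abscisic acid, and for the growth of root hairs and pollen tubes. In rice, RBOHH is known from the formation of air spaces in roots and rbohE from the tapetum of the anther. The letters do not match between rice and Arabidopsis.

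Positions follow the authors' count table (IRGSP-1.0 build), and lengths are summed exon lengths. On chromosome 1, RBOHB (Os01g0360200, 14621368 to 14627934, minus strand) has 13 exons and 3338 bases, and rbohE (Os01g0835500, 35813149 to 35817706, plus strand) has 13 exons and 3079 bases. The rbohA loci lie beside each other on the plus strand of the same chromosome. Os01g0734200 (30622077 to 30623763) holds 4 exons and 954 bases, and Os01g0734466 (30630841 to 30634318) holds 10 exons and 2069 bases. Both are shorter than the other multi-exon Rboh models, which span 2953 to 3934 bases. On chromosome 5 lie rbohD (Os05g0465800, 22860163 to 22865056, plus strand) and rbohC (Os05g0528000, 26237497 to 26245891, minus strand). RbohF (Os08g0453700) lies on chromosome 8 at 22210390 to 22219247 on the plus strand, with 14 exons and 3061 bases. On chromosome 9 is rbohG (Os09g0438000, 16186282 to 16197135, plus strand), and on chromosome 12 is RBOHH (Os12g0541300, 21648123 to 21653555, plus strand). OsrbohI (Os11g0537400, chromosome 11, 19592605 to 19593300, minus strand) is a model of 1 exon and 696 bases. It lies wholly inside the span of Os11g0537375, a gene of 10 exons on the other strand.

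Reads were counted by strand, per the file headers, so the opposite-strand loci that overlap every Rboh model were counted apart. Most of those loci had few counts. Os01g0835600, which overlaps rbohE, had 1922 to 3207 counts per library. Os11g0537375, around OsrbohI, had 15 to 119, lowest in PIP2-1 KO (18 and 15) and highest in PIP2-7 OE (113 and 119). Strand keeps the counts of rbohE and this neighbour apart only as far as the library preparation kept strand, which was not tested.

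Library totals ran from 24636211 to 40666127 counts. Within groups, the biological coefficient of variation came to 3.69% in the PIP2-1 experiment and 2.75% in the PIP2-7 experiment. OsPIP2-1 (the locus named OsPIP2a in the authors' table) stood at 132 CPM in PIP2-1 WT, 1900.2 in PIP2-1 OE and 138 in PIP2-1 KO, so its transcript level does not check the knockout label, since an edit can leave the transcript in place. OsPIP2-7 (taken as the OsPIP2 locus on chromosome 9) stood at 687 CPM in PIP2-7 WT, 1707 in PIP2-7 OE and 158 in PIP2-7 KO. OsPIP2-7 also varied in the PIP2-1 experiment, at 337 CPM in WT, 293 in OE and 962 in KO. The part of this variation in the Rboh results was not tested. OsPIP2-1 stood at 140 CPM in PIP2-7 WT, 116 in PIP2-7 OE and 151 in PIP2-7 KO. CPM here are counts divided by library size and scaled by TMM. Leaf markers were present in every library, with 13 of 13 above 0 and sums of 14977 to 57686 CPM, while the 3 floral markers summed to at most 0.558 CPM and the 3 root markers to at most 12.4 CPM. The leaf markers summed to 16402 to 17031 CPM in PIP2-1 WT, 27500 to 27816 in its OE and 52869 to 57686 in its KO. They summed to 33059 to 33889 CPM in PIP2-7 WT, 14977 to 15105 in its OE and 17910 to 18169 in its KO. The 6 senescence markers summed to 449 to 457 CPM in PIP2-1 WT, 323 to 325 in its OE, 278 to 290.5 in its KO, 270.0 to 272 in PIP2-7 WT, 586 to 609 in its OE and 452 to 461 in its KO. Leaf and senescence markers thus moved with the groups, WT pairs included, and their part in the Rboh results was not tested.

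Per length, RBOHB and rbohE were the leading Rboh transcripts of these leaves when OsrbohI, whose model is described above, was not counted. OsrbohI stood at 13.7 to 38.3 CPM per kilobase (group means), and in PIP2-7 KO its 28.6 exceeded the 12.6 of RBOHB. RBOHB stood at 12.6 to 53.2 TMM-scaled CPM per kilobase (group means) and rbohE at 28.2 to 57.2. The values of RbohF ran from 0.176 to 15.8 CPM per kilobase, those of rbohG from 0.302 to 4.47, those of rbohC from 0.521 to 2.08 and those of the longer rbohA locus from 1.63 to 5.80. The short rbohA locus lay between 0.304 and 1.26 CPM per kilobase. Of the summed level per length, RBOHB and rbohE together made 51.6% to 80.6% over all 10 loci, depending on the library, and 68.6% to 96.7% without OsrbohI, a choice made after seeing the data. The shares that follow are without OsrbohI. They held the smallest share in PIP2-1 OE (68.6% and 69.2%) and PIP2-7 KO (76.6% and 77.3%), where RbohF held 18.8% and 17.5%, and 13.5% and 13.4%. In PIP2-7 OE RbohF held 0.187% and 0.191%. The summed level itself moved less, from 77.9 to 102 CPM per kilobase across the 12 libraries, and from 96.7 to 132 with OsrbohI.

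**Figure D1:**
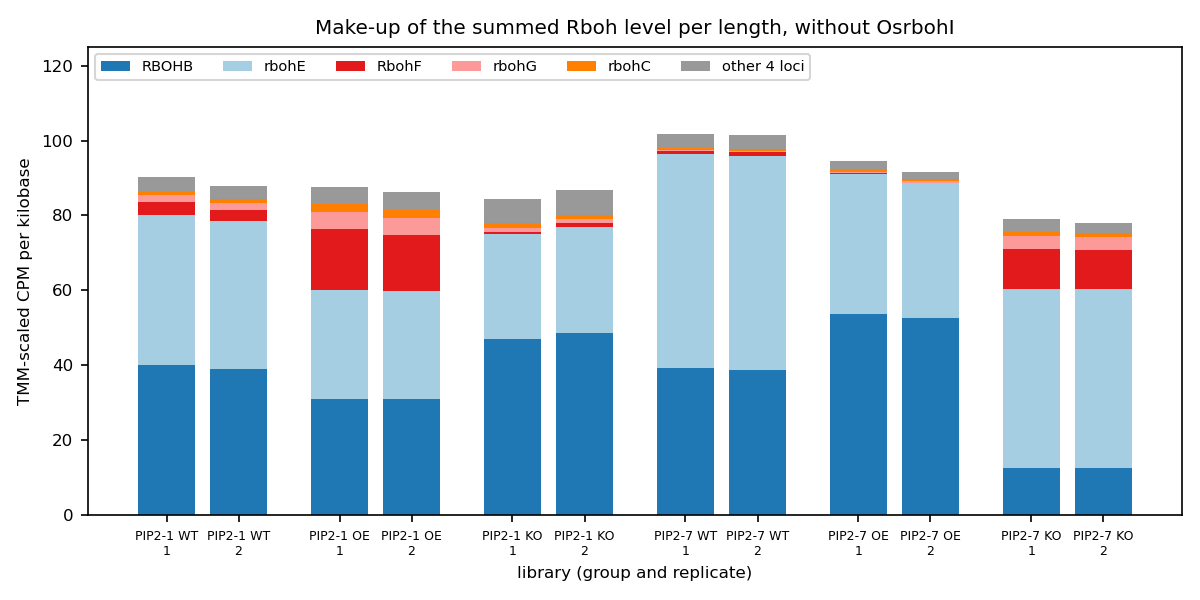
Each bar is 1 library, and its height is the summed level of 9 Rboh loci in TMM-scaled CPM per kilobase, without OsrbohI; colours give the genes. RBOHB and rbohE fill most of every bar, and the RbohF segment is wide in PIP2-1 OE (18.8% and 17.5%) and PIP2-7 KO (13.5% and 13.4%).

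RbohF showed the widest range of the Rboh genes. It was high in PIP2-1 OE and PIP2-7 KO and lowest in PIP2-7 OE, with an 89.7-fold difference between the highest and lowest group means. RbohF had 287 and 382 counts in PIP2-1 WT (10.9 and 9.73 CPM), 1985 and 1874 in PIP2-1 OE (50.3 and 46.3 CPM) and 55 and 68 in PIP2-1 KO (1.71 and 2.62 CPM). In the other experiment it had 84 and 105 counts in PIP2-7 WT (2.60 and 3.03 CPM), 19 and 20 in PIP2-7 OE (0.542 and 0.535 CPM) and 1131 and 1097 in PIP2-7 KO (32.5 and 32.0 CPM). The libraries of OE, KO and WT did not overlap within either experiment. Over all 6 groups the order was PIP2-1 OE, PIP2-7 KO, PIP2-1 WT, PIP2-7 WT, PIP2-1 KO and PIP2-7 OE, and the ranges of neighbouring groups overlapped for PIP2-7 WT and PIP2-1 KO alone. In bulk leaf RNA, fewer cells of a type that carries a transcript and less of it per cell cannot be told apart.

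Against its own WT, RbohF rose in PIP2-1 OE by a log2 change of 2.24 (SE 0.09; edgeR, adjusted p = 2.44e-21) and fell in PIP2-1 KO, by -2.27 (SE 0.15; edgeR, adjusted p = 1.38e-15). The directions were the other way round for OsPIP2-7. RbohF fell in PIP2-7 OE, by -2.40 (SE 0.22; edgeR, adjusted p = 6.82e-13), and rose in PIP2-7 KO, by 3.51 (SE 0.11; edgeR, adjusted p = 1.87e-30). OE and KO of an experiment share their WT libraries, so these paired directions are not independent. Compared directly, RbohF was higher in OE than KO by 4.51 (SE 0.12) for OsPIP2-1 and lower by -5.91 (SE 0.14) for OsPIP2-7 on the log2 scale.

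The WT pairs were of the same variety, tissue and age by the labels, yet RbohF differed between them by -1.86 on the log2 scale (PIP2-7 WT relative to PIP2-1 WT; SE 0.13; edgeR, adjusted p = 1.08e-18). Set against the WT pair of the other experiment, RbohF stood at 4.10 in PIP2-1 OE, -4.24 in PIP2-7 OE and 1.66 in PIP2-7 KO, all past the threshold. In PIP2-1 KO it stood at -0.41 (edgeR, adjusted p = 0.0567), so that fall depended on which WT was the reference. The rises in PIP2-1 OE and PIP2-7 KO and the fall in PIP2-7 OE kept their direction and call with either WT pair.

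**Figure D2:**
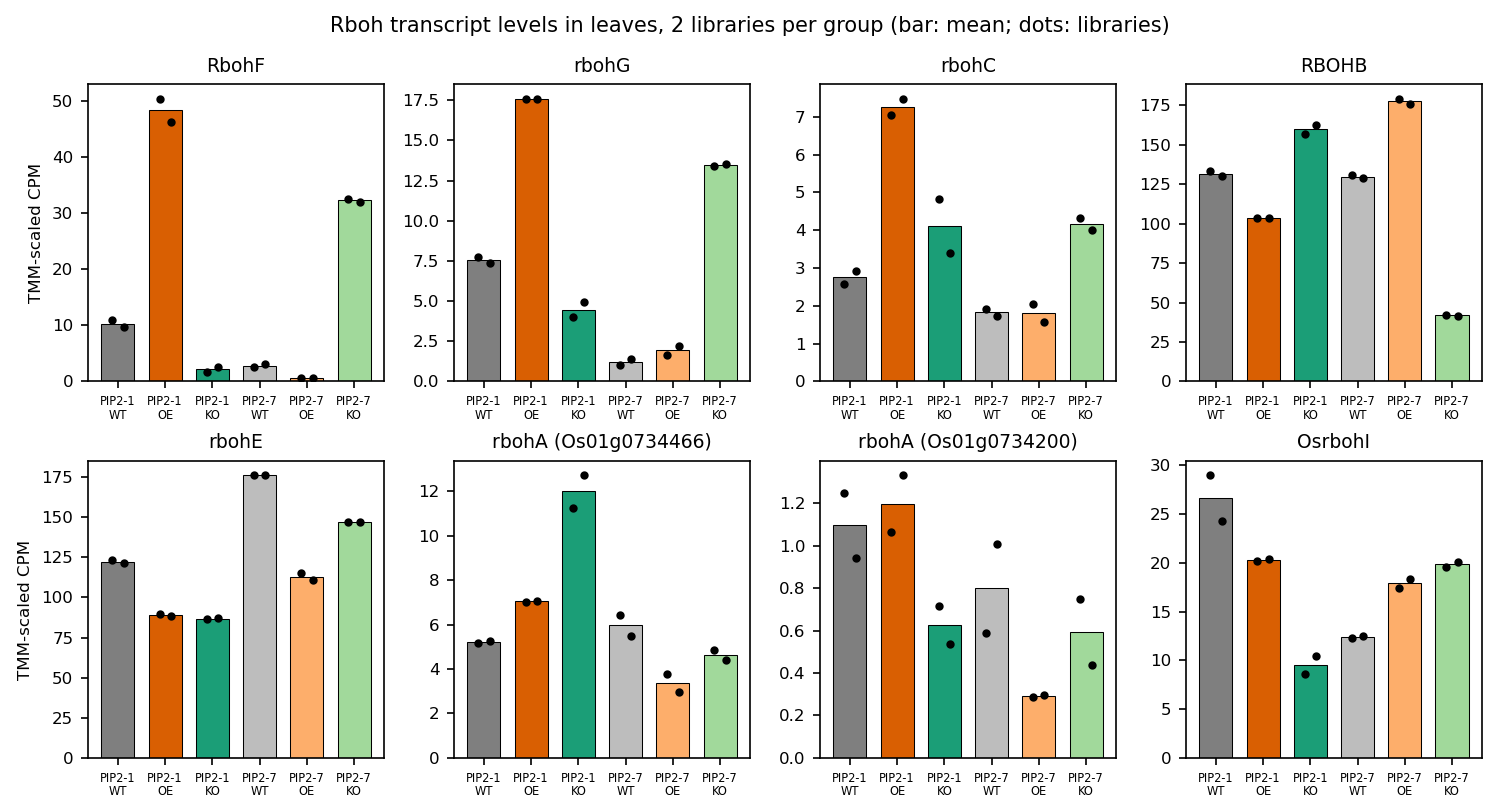
TMM-scaled CPM on a linear axis for the 8 Rboh loci that passed the filter on low counts, by group; bars are means and dots the 2 libraries of each group. RbohF, rbohG and rbohC reach their highest bars in PIP2-1 OE (48.3, 17.6 and 7.26 CPM), and RBOHB has its lowest in PIP2-7 KO (42.0 CPM).

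The next gene, rbohG, was also high in PIP2-1 OE and PIP2-7 KO. It stood at 7.77 and 7.36 CPM in PIP2-1 WT, 17.6 and 17.6 in PIP2-1 OE, and 3.99 and 4.96 in PIP2-1 KO. In the OsPIP2-7 groups rbohG stood at 0.992 and 1.38 CPM in WT, 1.66 and 2.22 in OE, and 13.4 and 13.6 in KO. No groups next to each other in the order of levels overlapped. It rose by 1.22 (SE 0.10; edgeR, adjusted p = 3.14e-12) in PIP2-1 OE and by 3.49 (SE 0.16; edgeR, adjusted p = 2.43e-23) in PIP2-7 KO on the log2 scale. Against its own WT it also passed at -0.77 in PIP2-1 KO (SE 0.13) and at 0.68 in PIP2-7 OE (SE 0.22; edgeR, adjusted p = 0.0063). The call in PIP2-7 OE was lost without replicate 1 of PIP2-7 WT (0.46; edgeR, adjusted p = 0.115) and without replicate 2 of PIP2-7 OE (0.45; edgeR, adjusted p = 0.156). The WT pairs differed most at this gene, by -2.65 (SE 0.17), and against the other WT pair rbohG stood at 3.88 in PIP2-1 OE, 1.89 in PIP2-1 KO, -1.95 in PIP2-7 OE and 0.84 in PIP2-7 KO. The directions in PIP2-1 KO and PIP2-7 OE therefore turned with the reference, and those in PIP2-1 OE and PIP2-7 KO did not.

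A weaker transcript, rbohC, had its highest level in PIP2-1 OE. It stood at 2.58 and 2.93 CPM in PIP2-1 WT, 7.05 and 7.48 in PIP2-1 OE, and 4.83 and 3.38 in PIP2-1 KO. It stood at 1.92 and 1.73 CPM in PIP2-7 WT, 2.06 and 1.58 in PIP2-7 OE, and 4.32 and 3.996 in PIP2-7 KO. PIP2-7 WT and PIP2-7 OE overlapped, as did PIP2-7 KO and PIP2-1 KO. rbohC rose by 1.38 (SE 0.16; edgeR, adjusted p = 4.77e-09) in PIP2-1 OE and by 1.18 (SE 0.19; edgeR, adjusted p = 9.27e-07) in PIP2-7 KO on the log2 scale. In PIP2-1 KO it rose by 0.58 (SE 0.18; edgeR, adjusted p = 0.00554), a call that was lost without replicate 1 of that group (0.29; edgeR, adjusted p = 0.257). In PIP2-7 OE the change was -0.031 (SE 0.22; edgeR, adjusted p = 0.911). Against the other WT pair rbohC stood at 1.99 in PIP2-1 OE, 1.19 in PIP2-1 KO and 0.58 in PIP2-7 KO, and in PIP2-7 OE it passed, at -0.62 (edgeR, adjusted p = 0.00835).

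RBOHB, whose product is the Rboh protein studied with OsRac1 in rice immunity, stood apart in PIP2-7 KO. It had 133 and 130.3 CPM in PIP2-1 WT, 104 and 103 in PIP2-1 OE, and 157 and 163 in PIP2-1 KO. In the other experiment RBOHB had 130.6 and 129 CPM in PIP2-7 WT, 179 and 176 in PIP2-7 OE, and 42.3 and 41.6 in PIP2-7 KO. Every RBOHB value in PIP2-7 KO was lower than in any other library, and the WT pairs overlapped. The fall in PIP2-7 KO was -1.64 on the log2 scale (SE 0.04; edgeR, adjusted p = 3.00e-34). RBOHB rose in PIP2-7 OE by 0.43 (SE 0.03) and in PIP2-1 KO by 0.28 (SE 0.04), and fell in PIP2-1 OE, by -0.35 (SE 0.04). The WT pairs did not pass the test at RBOHB (log2 difference -0.021, SE 0.04; edgeR, adjusted p = 0.660). These 4 changes also kept their direction and call against the other WT pair, at 0.43 in PIP2-7 OE, 0.30 in PIP2-1 KO, -0.33 in PIP2-1 OE and -1.65 in PIP2-7 KO. Within 500000 bases of RBOHB, 21 of 55 genes tested (38.2%) passed with at least a 2-fold change in PIP2-7 KO, against 20.2% of all genes, and the part of this neighbourhood in the RBOHB value was not tested. Around RbohF the share in the same comparison was 20% (10 of 50 genes).

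rbohE varied least, with a 2.03-fold range of group means. It stood at 124 and 121 CPM in PIP2-1 WT, 89.4 and 88.7 in PIP2-1 OE, and 86.4 and 87.1 in PIP2-1 KO. In PIP2-7 WT both libraries were at 176 CPM, in PIP2-7 OE they were at 115 and 111, and in PIP2-7 KO at 147 and 147. WT was the highest group in each experiment. rbohE fell in all 4 comparisons with its own WT, by -0.46 in PIP2-1 OE, -0.50 in PIP2-1 KO, -0.66 in PIP2-7 OE and -0.27 in PIP2-7 KO on the log2 scale (SE 0.03 to 0.04). The largest of these adjusted p-values was 1.73e-09 (edgeR). The WT pairs differed by 0.53 (SE 0.04; edgeR, adjusted p = 1.44e-18), and against the PIP2-1 WT rbohE in PIP2-7 KO was higher, by 0.27, and in PIP2-7 OE lower, by -0.12. With all 4 WT libraries as reference neither PIP2-7 comparison passed at rbohE (OE -0.40 and KO -0.022; edgeR, adjusted p = 0.0839 and 0.937).

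The longer rbohA locus, Os01g0734466, was highest in PIP2-1 KO. It stood at 5.15 and 5.25 CPM in PIP2-1 WT, 7.00 and 7.08 in PIP2-1 OE, and 11.3 and 12.7 in PIP2-1 KO. In the other experiment it stood at 6.45 and 5.48 CPM in PIP2-7 WT, 3.77 and 2.97 in PIP2-7 OE, and 4.86 and 4.40 in PIP2-7 KO. It rose by 1.20 (SE 0.12) in PIP2-1 KO and by 0.43 (SE 0.13) in PIP2-1 OE, and fell in PIP2-7 OE, by -0.85 (SE 0.15), and in PIP2-7 KO, by -0.37 (SE 0.14; edgeR, adjusted p = 0.0245). Against the other WT pair the call in PIP2-1 OE was lost (0.24; edgeR, adjusted p = 0.114), and so was that in PIP2-7 KO (-0.17; edgeR, adjusted p = 0.349). With all 4 WT libraries as reference both were lost (0.34 and -0.27; edgeR, adjusted p = 0.172 and 0.188). The call in PIP2-7 KO was also lost with DESeq2 (-0.37; adjusted p = 0.121), without replicate 1 of PIP2-7 WT (-0.25) and without replicate 2 of PIP2-7 KO (-0.30). The short locus, Os01g0734200, had only 10 to 54 counts per library. It passed against WT in PIP2-7 OE alone, at -1.48 (SE 0.45; edgeR, adjusted p = 0.00396), with 10 and 11 counts there and 19 and 35 in PIP2-7 WT. Without replicate 2 of PIP2-7 WT that difference was -1.04 (edgeR, adjusted p = 0.128).

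OsrbohI had 271 to 954 counts per library in the count table, but the authors' deposited tables marked none of its 6 comparisons significant and left 2 of them untested. Whether these counts come from an oxidase transcript was not tested. It stood at 26.6 CPM in PIP2-1 WT, 20.3 in PIP2-1 OE, 9.52 in PIP2-1 KO, 12.4 in PIP2-7 WT, 17.9 in PIP2-7 OE and 19.9 in PIP2-7 KO (group means). All 4 comparisons with its own WT passed, at -0.38, -1.48, 0.50 and 0.67 on the log2 scale, in the order PIP2-1 OE, PIP2-1 KO, PIP2-7 OE and PIP2-7 KO. Against the other WT pair the sign turned in PIP2-1 OE (0.71), PIP2-7 OE (-0.56) and PIP2-7 KO (-0.41).

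rbohD and RBOHH were close to silent in leaves and did not pass the filter on low counts in any comparison with all libraries kept. rbohD had 0 to 10 counts per library, with 10 and 8 in PIP2-7 OE and 1 and 0 in PIP2-7 WT. That is a ratio of 16.6 with a 95% exact (Clopper-Pearson) interval of 2.63 to 693, which covers counting error only. These 2 groups hold the highest and lowest means of rbohD, and the interval makes no allowance for that choice. Os05g0465900, which overlaps rbohD on the other strand, had 24 and 20 counts in PIP2-7 OE and 10 and 16 in PIP2-7 WT. Its part in the rbohD counts was not tested. RBOHH had 0 to 7 counts per library. Its highest sum was 10 counts in PIP2-7 KO against 3 in PIP2-7 WT, a ratio of 3.23 with an interval of 0.832 to 18.3.

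Against their own WT, 7 of the 8 tested loci passed the edgeR test (adjusted p under 0.05) in each of the 4 comparisons. In PIP2-1 OE 4 rose and 3 fell, where 44.1% of all genes tested passed (23.2% higher, 20.9% lower). In PIP2-1 KO 3 rose and 4 fell, beside 62.4% of all genes (30.5% higher, 31.9% lower). In PIP2-7 OE 3 rose and 4 fell, beside 67.1% (33.4% higher, 33.7% lower). In PIP2-7 KO 4 rose and 3 fell, beside 63.4% (32.1% higher, 31.3% lower). At least 2-fold changes were found for 3 loci in PIP2-1 OE (9.4% of all genes), 3 in PIP2-1 KO (22%), 2 in PIP2-7 OE (22.1%) and 4 in PIP2-7 KO (20.2%). The 2-fold members were RbohF, rbohG and rbohC in PIP2-1 OE, RbohF, the longer rbohA locus and OsrbohI in PIP2-1 KO, RbohF and the short rbohA locus in PIP2-7 OE, and RbohF, rbohG, rbohC and RBOHB in PIP2-7 KO. The median log2 change of the 8 loci was 0.29, -0.63, -0.35 and 0.20 in that order, beside 0.0015, -0.010, 0.0028 and 0 for all genes tested.

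Direct comparison of OE with KO gave 7 of 8 loci in the PIP2-1 experiment, 5 higher and 2 lower in OE, where 55.5% of all genes passed (28.7% higher, 26.8% lower). It gave 6 of 8 in the PIP2-7 experiment, 1 higher and 5 lower in OE, where 58% passed (28.4% higher, 29.6% lower). At least 2-fold, 3 loci passed in the first (16.9% of all genes) and 4 in the second (16.4%). RBOHB was the locus that was higher in PIP2-7 OE than in PIP2-7 KO, by 2.06 on the log2 scale (SE 0.04). In the PIP2-1 experiment the short rbohA locus (0.92) did not pass with DESeq2 (adjusted p = 0.102). It stood at 0.75 without replicate 2 of PIP2-1 OE or of PIP2-1 KO. In the PIP2-7 experiment the longer rbohA locus (-0.48) did not pass with DESeq2 (-0.47; adjusted p = 0.0572). It stood at -0.31 without replicate 2 of PIP2-7 OE and at -0.41 without replicate 1 of PIP2-7 KO. The WT pairs differed at 5 of 8 loci, with rbohE higher and rbohC, RbohF, rbohG and OsrbohI lower in PIP2-7 WT. The rbohC difference did not pass without replicate 2 of PIP2-1 WT (-0.50; edgeR, adjusted p = 0.121) or of PIP2-7 WT (-0.53; edgeR, adjusted p = 0.0791). Of all genes 56.6% passed there (28.1% higher, 28.5% lower), and 3 loci passed at 2-fold or more (15.9% of all genes). The effect of OE itself differed between the experiments at 7 of 8 loci (62.6% of all genes), 4 of them by at least 2-fold (29.5%). That of KO differed at 7 of 8 loci (67.3%), 5 of them by at least 2-fold (37%). For RbohF the OE effects differed by -4.62 (SE 0.24) and the KO effects by 5.78 (SE 0.18), PIP2-7 minus PIP2-1.

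**Figure D3:**
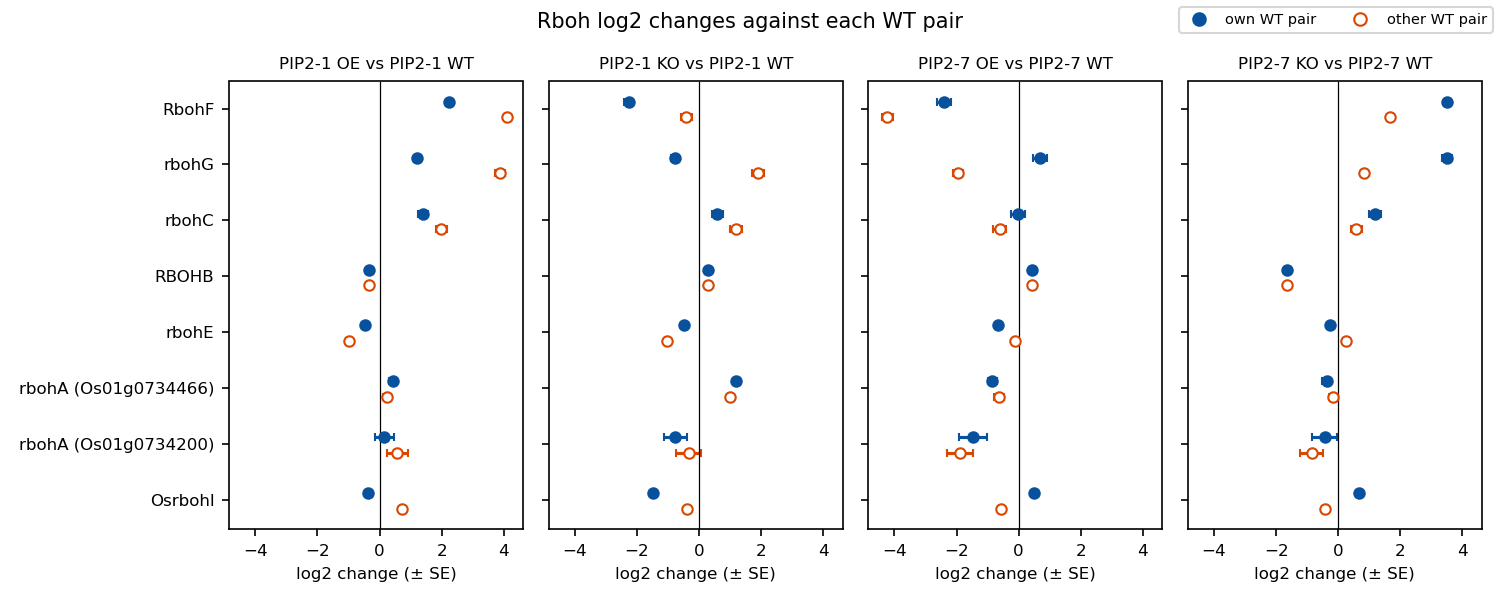
log2 change with its SE for 8 Rboh loci in each OE or KO group, against its own WT pair (filled) and against the WT pair of the other experiment (open). RbohF lies above 0 in PIP2-1 OE (2.24 and 4.10) and PIP2-7 KO (3.51 and 1.66) and below 0 in PIP2-7 OE (-2.40 and -4.24) with either reference, and RBOHB hardly moves with the reference.

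RbohF and rbohG ran together over the 12 libraries (Pearson r of log2 CPM 0.87), as did rbohC and rbohG (0.84) and rbohC and RbohF (0.75), while RBOHB and RbohF ran opposite (-0.74). These coefficients describe 6 groups of 2 libraries that share genotype and growth, so they carry no p. Among 4895 named genes, those most like RbohF were OsAT3 (r = 0.979), Oshox13 (0.974) and GRP94 (0.973), and those most like RBOHB were OsMTP1 (0.975), OsALMT4 (0.948) and OsMLO9 (0.945). For rbohG they were OsRLCK298 (0.965), OsBSK1-2 (0.964) and OsUAM1 (0.958). For rbohC they were OsPAL (0.943), OsABCA1 (0.940) and CHI (0.939). For rbohE they were OsMTP8.1 (0.978), OsFBH1 (0.966) and SODCC1 (0.959).

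Genes around the Rboh enzymes were taken from 10 lists built on gene names. The lists held families of kinases, calcium sensors and GTPases, pattern receptors, enzymes that handle superoxide and hydrogen peroxide, and 2 ferric reductases. Whether each gene acts on an Rboh protein or its products was not tested. Of 123 such genes, 111 were tested in the PIP2-1 experiment and 106 in the PIP2-7 experiment. In PIP2-1 OE 26 rose and 42 fell, in PIP2-1 KO 37 rose and 47 fell, in PIP2-7 OE 52 rose and 40 fell, and in PIP2-7 KO 45 rose and 39 fell. These made 61.3%, 75.7%, 86.8% and 79.2% of the list genes tested, beside 44.1%, 62.4%, 67.1% and 63.4% of all genes. Changes of at least 2-fold made 9.91%, 27.0%, 28.3% and 23.6% of those tested, beside the background shares of 9.4%, 22%, 22.1% and 20.2% given above.

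Upstream, CIPK14 and CIPK15 are nearly identical kinases of the CBL-CIPK calcium pathway and may share reads. CIPK15 stood at 5.61, 18.8 and 71.2 CPM in PIP2-1 WT, OE and KO and at 30.1, 2.59 and 3.80 in PIP2-7 WT, OE and KO. Its log2 changes were 1.72 in PIP2-1 OE, 3.64 in PIP2-1 KO, -3.55 in PIP2-7 OE and -2.99 in PIP2-7 KO, and -0.68, 1.24, -1.13 and -0.59 against the other WT pair, so the direction in PIP2-1 OE turned with the reference. The CBL and CIPK genes tested were mixed. In PIP2-1 OE 10 rose and 16 fell (44.1% of all genes passed), and in PIP2-1 KO 12 rose and 17 fell (62.4%). In PIP2-7 OE 21 rose and 12 fell (67.1%), and in PIP2-7 KO 16 rose and 13 fell (63.4%). CEBIP, the chitin receptor at the cell surface, stood at 11.7, 72.7 and 90.5 CPM in PIP2-1 WT, OE and KO. In PIP2-7 WT, OE and KO it stood at 40.9, 5.02 and 5.94 CPM. CEBIP changed by 2.64 in PIP2-1 OE and 2.95 in PIP2-1 KO and by -3.05 in PIP2-7 OE and -2.79 in PIP2-7 KO on the log2 scale, all past the edgeR test. OE and KO share their WT pair, and against the other WT pair CEBIP stood at 0.83, 1.15, -1.22 and -0.97. Its list of 8 pattern receptors and cytoplasmic kinases was mixed. OsSERK2 stood at -1.42 in PIP2-1 KO and 1.30 in PIP2-7 KO, and at -0.23 and 0.12 against the other WT pair. Of the list genes tested, 1 rose and 0 fell in PIP2-1 OE (44.1% of all genes passed). In PIP2-1 KO 3 rose and 3 fell (62.4%). In PIP2-7 OE and in PIP2-7 KO 3 rose and 2 fell (67.1% and 63.4%). OsRAC4, a Rac/ROP GTPase, was higher than its own WT in PIP2-1 KO (1.25), PIP2-7 OE (1.06) and PIP2-7 KO (1.72). Against the other WT pair these were 1.01, 1.33 and 1.97. RAC1 (Os01g0229400), which did not meet the rule for naming, stood at 1.23 in PIP2-1 OE, 2.11 in PIP2-1 KO and -1.52 in PIP2-7 OE. Its value in PIP2-7 KO and its values against the other WT pair are not given. The RAC1 values therefore do not show whether its directions depend on the reference. Of the 8 Rac/ROP genes tested 2 rose and 3 fell in PIP2-1 OE (44.1% of all genes passed). In PIP2-1 KO 3 rose and 4 fell (62.4%), in PIP2-7 OE 6 rose and 1 fell (67.1%), and in PIP2-7 KO 5 rose and 1 fell (63.4%).

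Downstream, 7 superoxide dismutases, 3 catalases, 8 ascorbate peroxidases and 5 glutathione peroxidases were measured. Of the 7 dismutases 4 rose and 2 fell in PIP2-1 OE (44.1% of all genes passed). In PIP2-1 KO 4 rose and 1 fell (62.4%), in PIP2-7 OE 1 rose and 6 fell (67.1%), and in PIP2-7 KO 0 rose and 5 fell (63.4%). Between the WT pairs 6 were higher and 0 lower in PIP2-7 WT (56.6%). OsSOD2 stood at 1.01 in PIP2-1 KO and OsSOD4 at -1.21 in PIP2-7 OE, and at 0.52 and -0.16 against the other WT pair. APX8, an ascorbate peroxidase of chloroplasts, stood at 139, 251 and 708 CPM in PIP2-1 WT, OE and KO and at 345, 73.0 and 80.0 in PIP2-7 WT, OE and KO. On the log2 scale APX8 changed by 0.85 in PIP2-1 OE, 2.34 in PIP2-1 KO, -2.26 in PIP2-7 OE and -2.11 in PIP2-7 KO. With the other WT pair as reference it stood at 1.04 in PIP2-1 KO, -0.93 in PIP2-7 OE and -0.80 in PIP2-7 KO. In PIP2-1 OE its 251 CPM lay below the 345 of PIP2-7 WT, so that direction turned with the reference. Of the 8 ascorbate peroxidases 3 rose and 2 fell in PIP2-1 OE (44.1% of all genes passed), 7 rose and 1 fell in PIP2-1 KO (62.4%), 2 rose and 5 fell in PIP2-7 OE (67.1%), and 2 rose and 5 fell in PIP2-7 KO (63.4%). CATC, the catalase of leaf peroxisomes, changed by -1.35 in PIP2-7 OE and -1.21 in PIP2-7 KO, and by -0.71 and -0.58 against the other WT pair. Most catalases went the other way there: of the 3, 2 rose and 1 fell in PIP2-7 OE (67.1% of all genes passed) and in PIP2-7 KO (63.4%). In PIP2-1 OE 0 rose and 2 fell (44.1%), and in PIP2-1 KO 1 rose and 2 fell (62.4%). OsGpx2 rose by 1.62 in PIP2-7 OE and by 1.42 in PIP2-7 KO on the log2 scale, and stood at 0.82 and 0.61 against the other WT pair. In the PIP2-1 experiment OsGpx2 fell against its own WT, by -0.35 in OE and -0.95 in KO. Its levels were 93.7 CPM in PIP2-1 OE and 62.0 in PIP2-1 KO, beside 68.0 in PIP2-7 WT. The direction in PIP2-1 OE therefore turned with the reference. Against its own WT OsGpx4 went the other way from OsGpx2, at 1.25 in PIP2-1 KO and -1.07 in PIP2-7 KO. OsGpx4 stood at 0.28 and -0.085 against the other WT pair. Of the 5 glutathione peroxidases 2 rose and 3 fell in PIP2-7 OE (67.1% of all genes passed) and in PIP2-7 KO (63.4%). In PIP2-1 OE 2 rose and 3 fell (44.1%), and in PIP2-1 KO 2 rose and 2 fell (62.4%).

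**Figure D4:**
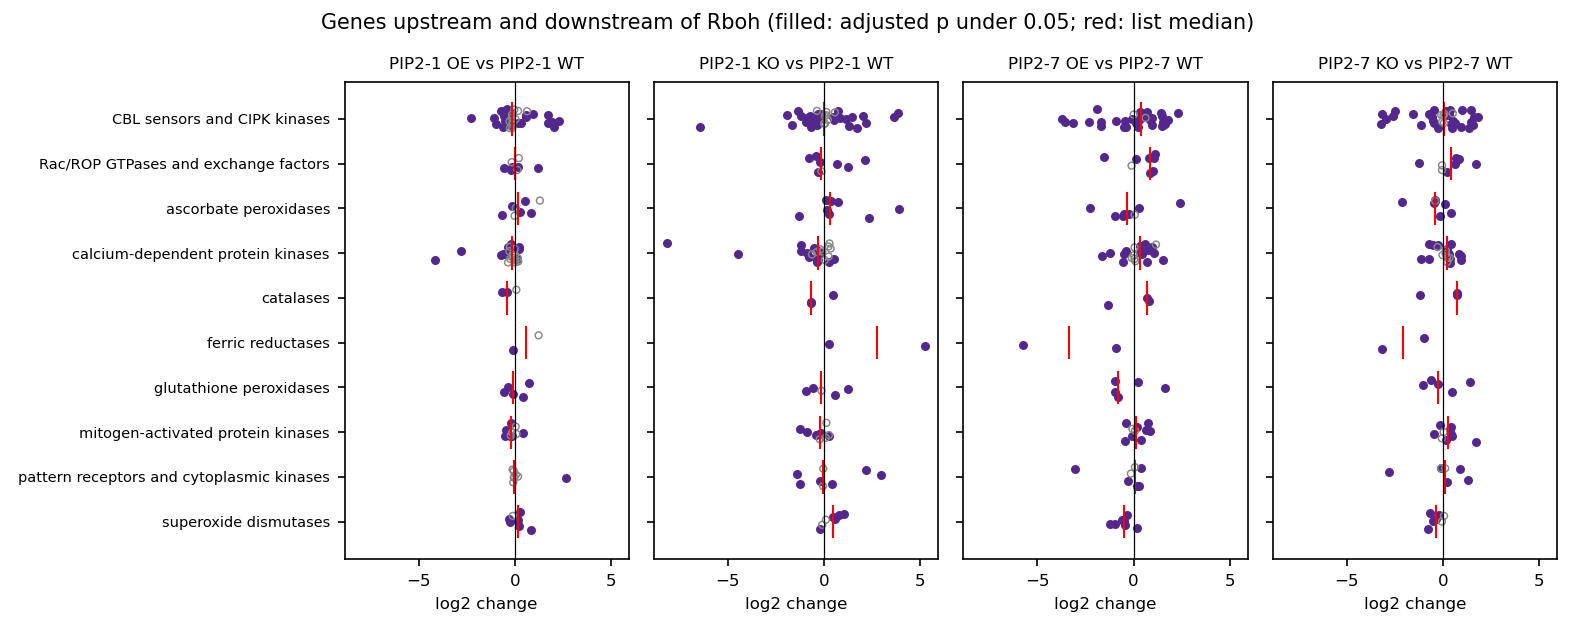
log2 change of each tested gene in 10 name-based lists around the Rboh enzymes for the 4 comparisons with WT; filled points passed the edgeR test and red lines are list medians. Points lie on both sides of 0 in most lists: 26 rose and 42 fell in PIP2-1 OE, and 52 rose and 40 fell in PIP2-7 OE.

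The authors' deposited tables, made with another program, gave RbohF log2 changes of 2.28 in PIP2-1 OE, -1.78 in PIP2-1 KO, -2.33 in PIP2-7 OE and 3.53 in PIP2-7 KO, all marked significant there. For RBOHB in PIP2-7 KO the authors' deposited table gave -1.41, marked significant, and in PIP2-1 KO it gave -0.063, not significant, where edgeR on the counts gave 0.28. For rbohE the authors' deposited tables marked 1 of the 4 falls significant, that in PIP2-1 OE (-0.52), and not those in PIP2-1 KO (-0.40), PIP2-7 OE (-0.38) and PIP2-7 KO (-0.041, where edgeR gave -0.27). For rbohC in PIP2-1 KO the authors' deposited table gave 0.13, not significant, where edgeR gave 0.58.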

How the data were processed

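Raw read counts per gene for 12 libraries were deposited by the authors, made per the file headers with featureCounts 1.4.0 (strand option 2, reads with several alignments counted at each place) on Ensembl release 52 of IRGSP-1.0. Trim Galore, HISAT2, Cufflinks and Cuffdiff 2.2.1 are named in the submitters' processing notes. The authors' deposited comparison tables give log2 fold changes, a test score, p-values and q-values; they supplied gene names and the values credited to them. Groups came from the titles. In the count table the WT columns name only a set and the variety, and each set was matched to an experiment by the OE and KO columns that carry the same set name.

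In R 4.3.3 with edgeR 4.0.16, each experiment's 6 libraries were fitted together (filterByExpr, TMM, robust quasi-likelihood), and p-values were adjusted by Benjamini-Hochberg across every tested gene (threshold 0.05). A fit of all 12 libraries served the WT pairs and the differences between experiments. Levels are TMM-scaled CPM, with n = 2 per group, and SEs are approximate. At the smallest library 1 CPM stands for 24.6 counts. Replicates differed by more than sampling noise in every group, with a chi-square of 2.42 to 7.24 per degree of freedom. The procedure was tested on simulated data. As alternatives, DESeq2 1.42.0, RLE scaling and an unfiltered table were tried, with other sets of libraries, a replicate block, each library left out, nuclear genes only and other WT references. Leaving OsrbohI out of the counts was chosen after seeing the data. Every Rboh locus is named; list genes named come from those past the threshold with at least a 2-fold change, a mean of at least 5 CPM and no overlap between the groups' libraries, at most 3 per list and comparison. RAC1 is given outside this rule. OsODC4 matched the dismutase pattern by spelling and was dropped. OsPIP2-1 and OsPIP2-7 were located through the authors' names and RefSeq synonyms (PIP2a for PIP2-1; PIP2-7 as the PIP2 gene of chromosome 9). The Rboh genes and the lists were chosen with earlier results of these data known.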

Additional observations from a re-analysis of the deposited data

Results flagged for a closer look

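The effect of overexpression or knockout differed between the OsPIP2-7 and OsPIP2-1 experiments by the edgeR test of the difference itself in 14 cases, given here as log2 values, PIP2-7 minus PIP2-1. For overexpression the differences were 0.80 for RBOHB, -1.61 for rbohA (Os01g0734200), -1.26 for rbohA (Os01g0734466), -0.18 for rbohE, -1.40 for rbohC, -4.62 for RbohF and 0.91 for OsrbohI. For knockout they were -1.91 for RBOHB, -1.56 for rbohA (Os01g0734466), 0.23 for rbohE, 0.61 for rbohC, 5.78 for RbohF, 4.26 for rbohG and 2.16 for OsrbohI. The difference of the short rbohA locus, Os01g0734200, did not pass without replicate 2 of PIP2-7 WT (-1.17; edgeR, adjusted p = 0.114). The knockout difference of rbohC did not pass with DESeq2 (0.59; adjusted p = 0.103), without the filter on low counts (0.58; edgeR, adjusted p = 0.0565), or without PIP2-1 WT replicate 2, PIP2-1 KO replicate 2, PIP2-7 WT replicate 2 or PIP2-7 KO replicate 1 (0.39 to 0.55; edgeR, adjusted p = 0.101 to 0.207). Each difference holds the difference between the WT pairs, which cannot be told apart from that of the altered genes.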

How the results depend on the processing

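The choice of WT mattered most. Against the WT pair of the other experiment, the direction reversed for OsrbohI in PIP2-1 OE (0.71), PIP2-7 OE (-0.56) and PIP2-7 KO (-0.41), for rbohG in PIP2-1 KO (1.89) and PIP2-7 OE (-1.95), and for rbohE in PIP2-7 KO (0.27). With all 4 WT libraries as reference it reversed for OsrbohI in PIP2-1 OE (0.057) and PIP2-7 OE (-0.13) and for rbohG in PIP2-1 KO (0.034) and PIP2-7 OE (-1.17), and 4, 4, 4 and 3 loci passed in PIP2-1 OE, PIP2-1 KO, PIP2-7 OE and PIP2-7 KO, in place of 7 each. All genes passing then numbered 2061, 5662, 7363 and 5518, in place of 10355, 14666, 15857 and 14968; that reference pools WT pairs that differ. RbohF in PIP2-1 KO did not pass with it (-1.60; edgeR, adjusted p = 0.0806), nor did rbohG in PIP2-1 OE (2.01; 0.0993) and PIP2-7 KO (1.63; 0.106). Requiring a 2-fold change left 3, 3, 3, 2 and 4 loci in PIP2-1 OE, PIP2-1 KO, PIP2-1 OE against KO, PIP2-7 OE and PIP2-7 KO, 3 between the WT pairs and 4 for the difference of OE effects. With 1 library left out at a time, the log2 change of RbohF ranged from 2.15 to 2.31 in PIP2-1 OE and -2.57 to -1.96 in PIP2-1 KO. It ranged from -2.51 to -2.30 in PIP2-7 OE and 3.41 to 3.62 in PIP2-7 KO. The labels do not say whether replicate numbers pair the libraries. Same-numbered deviations were hardly correlated (-0.024 to 0.024), which cannot decide it, since paired libraries without a shared effect would give the same. With the replicate number as a block 7 loci passed in each comparison with WT, as without it. Depth limits rbohD, RBOHH and the short rbohA locus.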

Other observations

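Os08g0453733, an unnamed locus of 398 bases on the same strand that begins 228 bases after the end of RbohF, was singled out after its values were seen. It had 49 and 78 counts in PIP2-1 WT, 324 and 315 in PIP2-1 OE, 19 and 17 in PIP2-1 KO, 10 and 11 in PIP2-7 WT, 10 and 14 in PIP2-7 OE, and 289 and 266 in PIP2-7 KO. Its log2 changes against its own WT were 2.05, -1.64, 0.057 and 4.66 in PIP2-1 OE, PIP2-1 KO, PIP2-7 OE and PIP2-7 KO, beside 2.24, -2.27, -2.40 and 3.51 for RbohF. The edgeR test was passed in 3 of the 4, PIP2-7 OE being the exception (adjusted p = 0.918). The WT pairs differed at this locus by -2.61 (PIP2-7 WT relative to PIP2-1 WT, SE 0.30, edgeR, adjusted p = 7.30e-11). Its counts in PIP2-1 KO (19 and 17) were above those in PIP2-7 WT (10 and 11). The fall in PIP2-1 KO therefore depended on which WT was the reference.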
